A study of Mus musculus with 6 samples.

Results

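The primed epiblast genes Fgf5, Fgf8, Otx2, Pou3f1, Sox3, Zic2, Foxd3, Sall2 and Slc7a3 were followed in mouse embryonic stem cells after knockdown of Trim71. They were taken by name, as probe sets whose only annotated gene symbol is 1 of these. All 9 genes had 1 such probe set each, so they make up 9 of the 19937 genes tested. The series holds 6 single-colour Affymetrix arrays of mouse embryonic stem cells. The Trim71 knockdown group (3 arrays, genotype field Trim71 KD) was treated with 3 siRNAs against Trim71 and a lipid transfection reagent and harvested after 72 h. The control group (3 arrays) is labelled wild-type in the genotype field and parental in the series title, while the treatment text names a non-targeting siRNA. The labels used here give no line or culture medium and do not say whether replicates were separate cultures, so the p-values cover the spread among these arrays and no more, and that spread may be technical.

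Embryonic stem cells of the mouse can be held in a naive state, which resembles the epiblast before implantation, or move through a formative to a primed state, which resembles the epiblast after implantation. That passage is driven by FGF and ERK signalling, during which Otx2 and its partners switch on enhancers of genes such as Fgf5 while naive factors are lost. Trim71 (Lin41) is a ubiquitin ligase of early embryos and stem cells that also binds RNA.

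After the knockdown the primed epiblast genes lay on both sides of their control levels, by at most 1.37-fold. Fgf5 rose 1.21-fold, Zic2 fell to 0.73 of its control level, and the other 7 did not pass the test. The test was limma across all genes with Benjamini-Hochberg adjustment, with a change called at an adjusted p under 0.05. Of the 9 genes 2 were called, beside 5.53% of all genes tested, 1 of them higher (3.39% of all genes) and 1 lower (2.15% of all genes). With 9 genes, no share can be read finely against that background. The log2 fold change (knockdown minus control) was above 0 for 3 members and below 0 for 6, and its median was −0.04, beside 0.00 over all genes. The absolute log2 fold change had a median of 0.12 over the members and 0.07 over all genes. Knockdown and control values were fully apart, with no overlap, for 4 members, Fgf5, Zic2, Pou3f1 and Slc7a3, and for 25.5% of all genes. These 4 were also the members with an unadjusted p under 0.05. The weakest of them, Pou3f1, ranked 3438 among all genes by the size of its limma test statistic, so at least 3438 genes pass that cut. Of the 9 members 8 had a mean level at or above that of the median gene. A fit of the 9969 genes at such levels called 1124 higher and 766 lower. The shares of all genes given here were not matched for level.

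**Figure D1:**
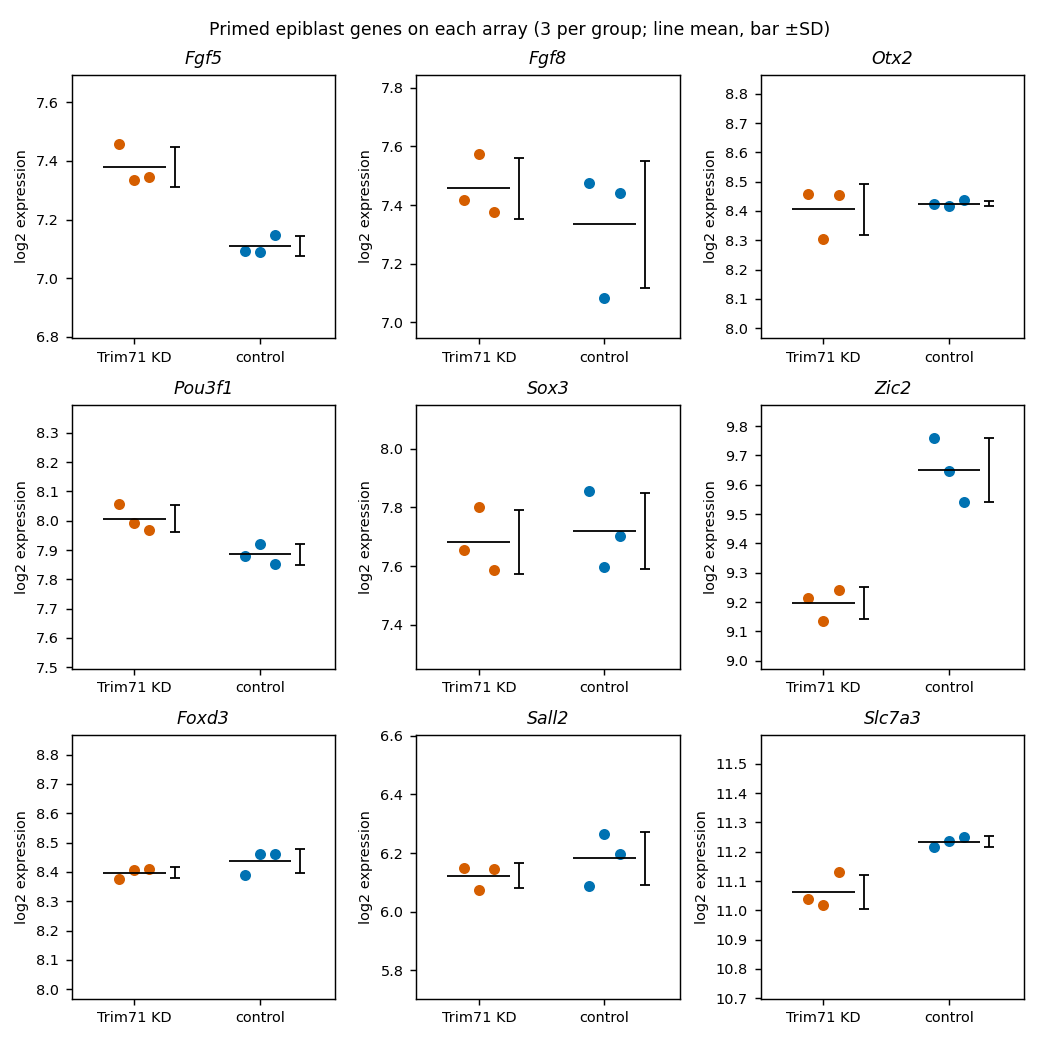
Log2 expression (y axis, equal spans of 0.9 in every panel) of the 9 genes on the 3 Trim71 knockdown arrays (orange, left) and the 3 control arrays (blue, right), with the mean as a line and the SD as a bar. The groups separate clearly for Fgf5, which is higher after the knockdown, and for Zic2, which is lower.

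Several facts of the arrays bear on all of these values. Trim71 itself read 9.00, 8.95 and 8.98 (log2) on the knockdown arrays and 10.48, 10.50 and 10.51 on the control arrays, which leaves 34.9% of the control signal. Its log2 fold change was −1.52 ± 0.045 (SE, adjusted p = 2.8e-05 in limma), and an exact two-sided permutation test gave p = 0.1, its lower limit for groups of 3. Knockdown array 3 stood apart, with an upper quartile of 8.42 against 8.32 to 8.35 on the other arrays. Over all genes 675 were higher and 428 lower, against 603 and 699 without that array, 779 and 763 once quantile normalization was repeated, and 527 and 616 with each array centred on its median. All 12 listed embryonic stem cell markers, among them Pou5f1, Sox2 and Nanog, had mean log2 levels between 9.43 and 12.96, with array medians near 6.3. No detection call came with the values, so no gene is called present or absent. In bulk RNA, fewer cells of a type and less RNA per cell cannot be told apart.

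Fgf5 encodes a secreted fibroblast growth factor of the FGF4 subfamily and is a widely used marker of primed against naive cells. Its log2 level was 7.46, 7.34 and 7.35 on the knockdown arrays and 7.09, 7.09 and 7.15 on the control arrays. Every knockdown array read higher than every control array, and the gap between the groups, 0.19, was wider than the range within either group (0.12 in knockdown arrays and 0.06 in control arrays). The log2 fold change was 0.27 ± 0.053 (SE), a 1.21-fold rise with a 95% confidence interval of 1.11 to 1.31 and an adjusted p of 0.031. The call held without knockdown array 3 (adjusted p = 0.034), but the adjusted p was 0.0758 without knockdown array 1, 0.0779 without knockdown array 2, 0.136 without control array 1, 0.129 without control array 2 and 0.0843 without control array 3. It was also lost after both other scalings, with an adjusted p of 0.0605 once quantile normalization was repeated and 0.0574 with each array centred on its median. Through all these settings the log2 fold change stayed between 0.23 and 0.29.

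Promoter sequences from RefSeq (GRCm38.p6) were at hand for 4 of the 9 genes, Fgf5, Foxd3, Otx2 and Sall2. The 250 bases before an annotated start are shown for Fgf5, the member of these that changed, and for Foxd3 and Otx2, transcription factor genes that did not pass the test. The motifs below were searched on both strands, the OTX core TAATCC, the POU octamer ATGCAAAT, the SOX core ACAATG, the ETS core CCGGAA, the TCF/LEF core CTTTGA and the TATA box TATAAA. Capitals mark the matches, none of which overlap, and a match is only a run of letters, not a shown site. The Fgf5 stretch (chr5:98253934-98254183, plus strand) runs 5′ to 3′ as follows.
Fgf5: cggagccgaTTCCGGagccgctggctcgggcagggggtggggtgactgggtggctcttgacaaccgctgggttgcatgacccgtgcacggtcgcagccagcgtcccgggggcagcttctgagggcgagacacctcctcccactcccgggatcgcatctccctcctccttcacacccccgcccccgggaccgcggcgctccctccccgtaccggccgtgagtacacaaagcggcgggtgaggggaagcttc
The Foxd3 stretch is chr4:99656049-99656298, plus strand.
Foxd3: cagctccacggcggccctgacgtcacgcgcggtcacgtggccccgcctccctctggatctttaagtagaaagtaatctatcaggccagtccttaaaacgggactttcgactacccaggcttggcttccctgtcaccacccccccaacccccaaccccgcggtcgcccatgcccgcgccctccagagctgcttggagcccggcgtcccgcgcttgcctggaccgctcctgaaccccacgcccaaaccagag
Otx2 has 4 annotated starts in the table, and the stretch that holds the OTX core is chr14:48665110-48665359, minus strand.
Otx2: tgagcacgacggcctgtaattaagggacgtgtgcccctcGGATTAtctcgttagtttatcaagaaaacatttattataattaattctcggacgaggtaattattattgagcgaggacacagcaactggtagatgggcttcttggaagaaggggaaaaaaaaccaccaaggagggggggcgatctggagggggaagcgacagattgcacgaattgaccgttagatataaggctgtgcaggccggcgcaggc

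The Fgf5 stretch holds 1 ETS core, which begins 241 bases before the start, and none of the other motifs. Of 32841 such stretches in the RefSeq table, 12% hold that core. The shown Otx2 stretch holds the OTX core 211 bases before its start, a core found in 6.25% of all stretches. None of the motifs lies in the Foxd3 stretch. The Fgf5 stretch has a GC content of 70.8% with 24 CpG pairs, the Foxd3 stretch 65.6% with 21, and the shown Otx2 stretch 48.4% with 14, beside medians of 52.4% and 6 over all stretches. Of the stretches not shown, 1 of Otx2 and 1 of Sall2 hold a TATA box, which 12.4% of all stretches hold.

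Fgf8, the other secreted growth factor among the 9, patterns the gastrulating embryo and gives its name to the FGF8 subfamily. Its log2 level was 7.42, 7.58 and 7.38 on the knockdown arrays and 7.48, 7.08 and 7.44 on the control arrays. Control array 2 read lowest of all 6 arrays, the groups overlapped, and the range within the control group was 0.39, the widest of any member. Fgf8 had a log2 fold change of 0.12 ± 0.11 (SE, adjusted p = 0.635), with a 95% confidence interval from −0.13 to 0.38. Without control array 2 it was −0.0025, so its sign rests on that array.

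Of the other 20 FGF ligand genes on the arrays 3 rose and 2 fell, which is 25% called, beside 5.53% of all genes. Those that rose include the closest relatives of Fgf8. Fgf17 read 7.94, 7.95 and 7.94 on the knockdown arrays and 7.43, 7.37 and 7.32 on the control arrays, a log2 fold change of 0.57 ± 0.049 (SE, adjusted p = 0.00191). Fgf18 read 7.88, 7.72 and 7.71 on the knockdown arrays and 7.22, 7.18 and 7.13 on the control arrays, a log2 fold change of 0.59 ± 0.061 (SE, adjusted p = 0.00352). Both calls held with any 1 array left out. Whether either differed from Fgf8 in its response was not tested. Fgf4, the ligand that stem cells themselves secrete and a subfamily relative of Fgf5, rose by 0.31 ± 0.057 on the log2 scale (SE, adjusted p = 0.0231), a call kept in 2 of the 6 fits with an array left out and highest at 0.103 without control array 1. Fgf6, the remaining gene of that subfamily, did not pass at −0.09 (named after its value was seen). Fgf10, a ligand of epithelial and mesenchymal signalling, fell by 0.47 on the log2 scale (adjusted p = 0.00541), a call that held with any array left out, and the intracellular family member Fgf13 fell by 0.22 (adjusted p = 0.0479) but was called in 0 of the 6 fits, reaching 0.19 without control array 1.

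Of 5 receptor genes of this pathway 2 rose and 0 fell, beside 3.39% and 2.15% of all genes. Fgfr2 rose by 0.49 ± 0.05 on the log2 scale (SE, adjusted p = 0.00323) and held with any array left out, and Fgfr1 rose by 0.30 ± 0.052 (SE, adjusted p = 0.0197), kept in 3 of 6 such fits and highest at 0.0997 without control array 1. Of 20 measured genes that respond to ERK, the kinase downstream of these receptors, 2 rose and 2 fell, beside 3.39% and 2.15% of all genes. Their median log2 fold change was 0.00, with 10 above 0 and 10 below. That median does not mean that the list was flat. Knockdown and control values did not overlap for 14 of the 20, beside 25.5% of all genes. Egr1, an immediate early factor, fell by 0.48 (adjusted p = 0.00483) with any array left out. Etv4, an ETS factor, fell by 0.29 (adjusted p = 0.0197), a call kept in 1 of 6 fits and highest at 0.0973 without control array 2. Junb rose by 0.26 (adjusted p = 0.0377), kept in 0 of 6 and highest at 0.159 without control array 1. The ERK inhibitor gene Spred1 rose by 0.23 (adjusted p = 0.0275), kept in 1 of 6 and highest at 0.129 without control array 1. Spry1 at −0.16, Spry2 at −0.13, Spry4 at −0.20, Spred2 at −0.10 and Dusp6 at −0.21 were not called. Neither were Dusp4 at 0.23, Dusp5 at 0.09 and Il17rd at 0.03. Like Spred1, these genes encode inhibitors of FGF and ERK signalling, and they were named with their values known.

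Zic2 encodes a zinc finger transcription factor that sits at enhancers of primed cells and later shapes the forebrain. Its log2 level was 9.21, 9.13 and 9.24 on the knockdown arrays and 9.76, 9.65 and 9.54 on the control arrays. All 3 knockdown arrays read lower than all 3 control arrays, with a gap of 0.30 between the groups and a range of 0.11 within the knockdown group and 0.22 within the control group. The log2 fold change was −0.45 ± 0.067 (SE, adjusted p = 0.0117), a level 1.37-fold lower, and the knockdown level was 0.73 of the control level with a 95% confidence interval of 0.656 to 0.814. Zic2 was the member that differed most, and it lay outside the central 95% of all genes, which ran from −0.27 to 0.31. The call held without knockdown array 1 (adjusted p = 0.0366), knockdown array 3 (0.0193) or control array 3 (0.0238). The adjusted p was 0.0555 without knockdown array 2, 0.0535 without control array 1 and 0.0584 without control array 2. Both other scalings kept it, with an adjusted p of 0.00881 once quantile normalization was repeated and 0.0109 with each array centred on its median.

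Zic5, a second zinc finger gene of this family, was also lower. In the RefSeq table Zic5 and Zic2 both lie on chromosome 14, with 1 noncoding gene, 2610035F20Rik, and 0 protein-coding genes between them. Zic5 has a pair of probe sets. The brighter read 9.04, 9.14 and 9.12 on the knockdown arrays and 9.81, 9.79 and 9.69 on the control arrays, a log2 fold change of −0.67 ± 0.056 (SE, adjusted p = 0.00185) that held with any array left out. The dimmer read 7.51, 7.56 and 7.41 on the knockdown arrays and 7.77, 7.76 and 7.71 on the control arrays, a log2 fold change of −0.25, and was not called among all probe sets (adjusted p = 0.114). The probe sets gave one direction and different sizes, and their mean gave −0.46 (adjusted p = 0.00486). Zic1 at −0.09 and Zic4, named with their values known, were not called. Zic4 has a pair of probe sets of like level that went opposite ways, at −0.07 in the one used and 0.10 in the other (adjusted p = 0.666 among all probe sets). Fold changes of probe sets with a low signal understate the change of the transcript, and the mean log2 levels of Zic1 and Zic4 were about 5.0.

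Neural markers went both ways beside Zic2, which also acts in neural development. Of 8 measured neural markers 1 rose and 2 fell, beside 3.39% and 2.15% of all genes. Pax6, a regulator of eye and brain, fell by 0.76 on the log2 scale (adjusted p = 0.00573), and the neuronal factor gene Neurod1 fell by 0.50 (adjusted p = 0.00748), both with any array left out. Nes, an intermediate filament gene of neural progenitors, rose by 0.27 (adjusted p = 0.0497), a call kept in 0 of the 6 fits and highest at 0.185 without control array 1. The log2 of the summed signal of the list was 10.10 to 10.17 on the knockdown arrays and 10.31 to 10.32 on the control arrays. Pax6 and Neurod1, with mean log2 levels of 8.35 and 7.42 on the control arrays, weigh in that sum. Across the 8 markers 4 lay above 0 and 4 below, with a median log2 fold change of 0.01, so the lower sum does not describe the list as a whole. The part of neural cells in the Zic2 value was not tested. Sox1, a defining marker of neural progenitors chosen with its value known, was at −0.02 (adjusted p = 0.943).

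**Figure D2:**
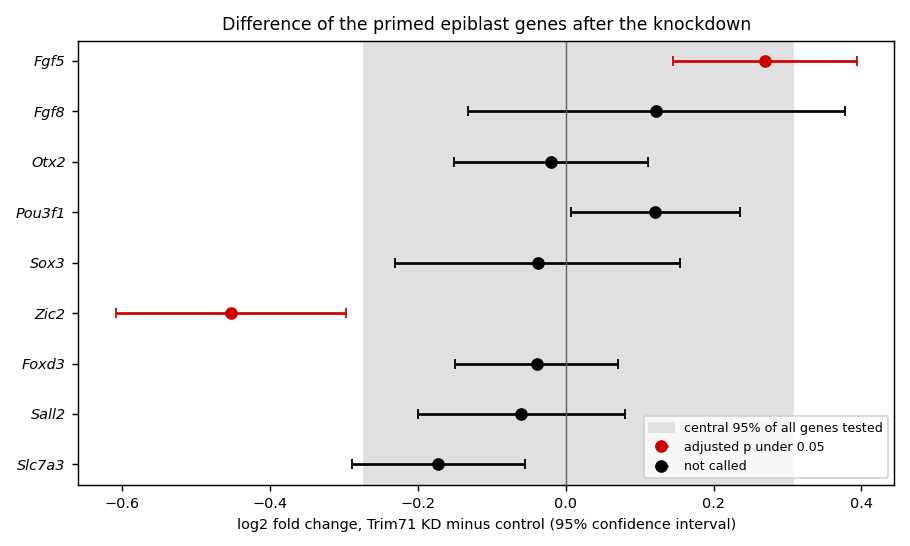
Log2 fold change (x axis, Trim71 knockdown minus control) of the 9 genes with 95% confidence intervals from limma, red where the adjusted p was under 0.05, over a grey band that holds the central 95% of all 19937 genes. Zic2 at −0.45 lies left of the band, Fgf5 at 0.27 lies within it, and the intervals of Otx2, Sox3, Foxd3, Sall2 and Fgf8 cross 0.

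Otx2 encodes the homeobox factor that drives the exit from the naive state, and it was not called. Its log2 level was 8.46, 8.31 and 8.45 on the knockdown arrays and 8.42, 8.42 and 8.44 on the control arrays. The knockdown values lay on either side of the control values. Between the groups the log2 fold change was −0.02 ± 0.056 (SE, adjusted p = 0.904), with a 95% confidence interval from −0.15 to 0.11, or 0.901-fold to 1.08-fold. Without knockdown array 2, the lowest, the value was 0.03. Its relatives Otx1 and Crx were at −0.06 and −0.02 and were not called (named with their values known).

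Pou3f1, also called Oct6, is a POU factor of the epiblast and of developing glia. Its log2 level was 8.06, 7.99 and 7.97 on the knockdown arrays and 7.88, 7.92 and 7.85 on the control arrays. The groups did not overlap, but the gap between them was only 0.05. For Pou3f1 the log2 fold change was 0.12 ± 0.049 (SE), with a 95% confidence interval from 0.01 to 0.24 and an unadjusted p of 0.0407, and it was not called over all genes (adjusted p = 0.236). No other setting called it, with adjusted p-values from 0.0817 to 0.476. Of the other 3 POU class III genes 0 were called in limma, and 0 had an unadjusted p under 0.05. Over all genes 5.53% were called, so a count of 0 among 3 says little. Their mean log2 levels ran from 5.64 to 6.39, where a fold change may be understated.

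Sox3, a SOXB1 factor of the epiblast and early neural plate, read 7.66, 7.80 and 7.59 on the knockdown arrays and 7.86, 7.60 and 7.70 on the control arrays. The groups overlapped throughout, and the log2 fold change was −0.04 ± 0.083 (SE, adjusted p = 0.871), with a 95% confidence interval from −0.23 to 0.15. Its sign turned to 0.01 without knockdown array 3 to 0.03 without control array 1 and to 0.016 with array weights. Sox2, the pluripotency factor of the same family, did not pass at 0.14 (named after its value was seen). With the trended and robust prior in limma 1 of the 3 SOXB1 genes was called, and it was not Sox3 (adjusted p = 0.872).

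Foxd3, a forkhead factor of the epiblast and neural crest, read 8.38, 8.41 and 8.41 on the knockdown arrays and 8.39, 8.46 and 8.46 on the control arrays. Its range was 0.03 within the knockdown group and 0.07 within the control group, and the groups overlapped. For Foxd3 the log2 fold change was −0.04 ± 0.047 (SE, adjusted p = 0.743), with a 95% confidence interval from −0.15 to 0.07. Of the 4 FOXD genes 0 were called in limma, with either prior, and 0 had an unadjusted p under 0.05. With 5.53% of all genes called with the usual prior, a count of 0 among 4 says little. The FOXD genes other than Foxd3 had mean log2 levels from 4.73 to 6.09, where a fold change may be understated.

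Sall2, a spalt-like zinc finger gene, read 6.15, 6.07 and 6.15 on the knockdown arrays and 6.09, 6.27 and 6.20 on the control arrays. The groups overlapped, the log2 fold change was −0.06 ± 0.06 (SE, adjusted p = 0.679), and the 95% confidence interval ran from −0.20 to 0.08. These levels lie near the array medians, where a fold change may be understated. A relative, Sall1, rose by 0.28 ± 0.045 (SE, adjusted p = 0.016), a call kept in 2 of 6 fits with an array left out and highest at 0.0866 without control array 1. Whether Sall1 and Sall2 differed in response was not tested.

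Slc7a3 encodes CAT3, a membrane transporter of arginine and lysine. Its log2 level was 11.04, 11.02 and 11.13 on the knockdown arrays and 11.21, 11.24 and 11.25 on the control arrays. Every knockdown array read lower than every control array, with a gap of 0.09 and a range of 0.11 within the knockdown group and 0.04 within the control group. The log2 fold change was −0.17 ± 0.05 (SE), with a 95% confidence interval from −0.29 to −0.06, an unadjusted p of 0.00957 and an adjusted p of 0.105. The call hung on the setting. Without knockdown array 3 the log2 fold change was −0.21 with an adjusted p of 0.0448, and the adjusted p was 0.0271 among genes at or above the median level, 0.00314 with a trended and robust prior and 0.0224 with array weights. Among the other cationic amino acid transporters Slc7a2 fell by 0.29 (adjusted p = 0.0394), kept in 0 of 6 fits with an array left out and highest at 0.122 without control array 2.

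**Figure D3:**
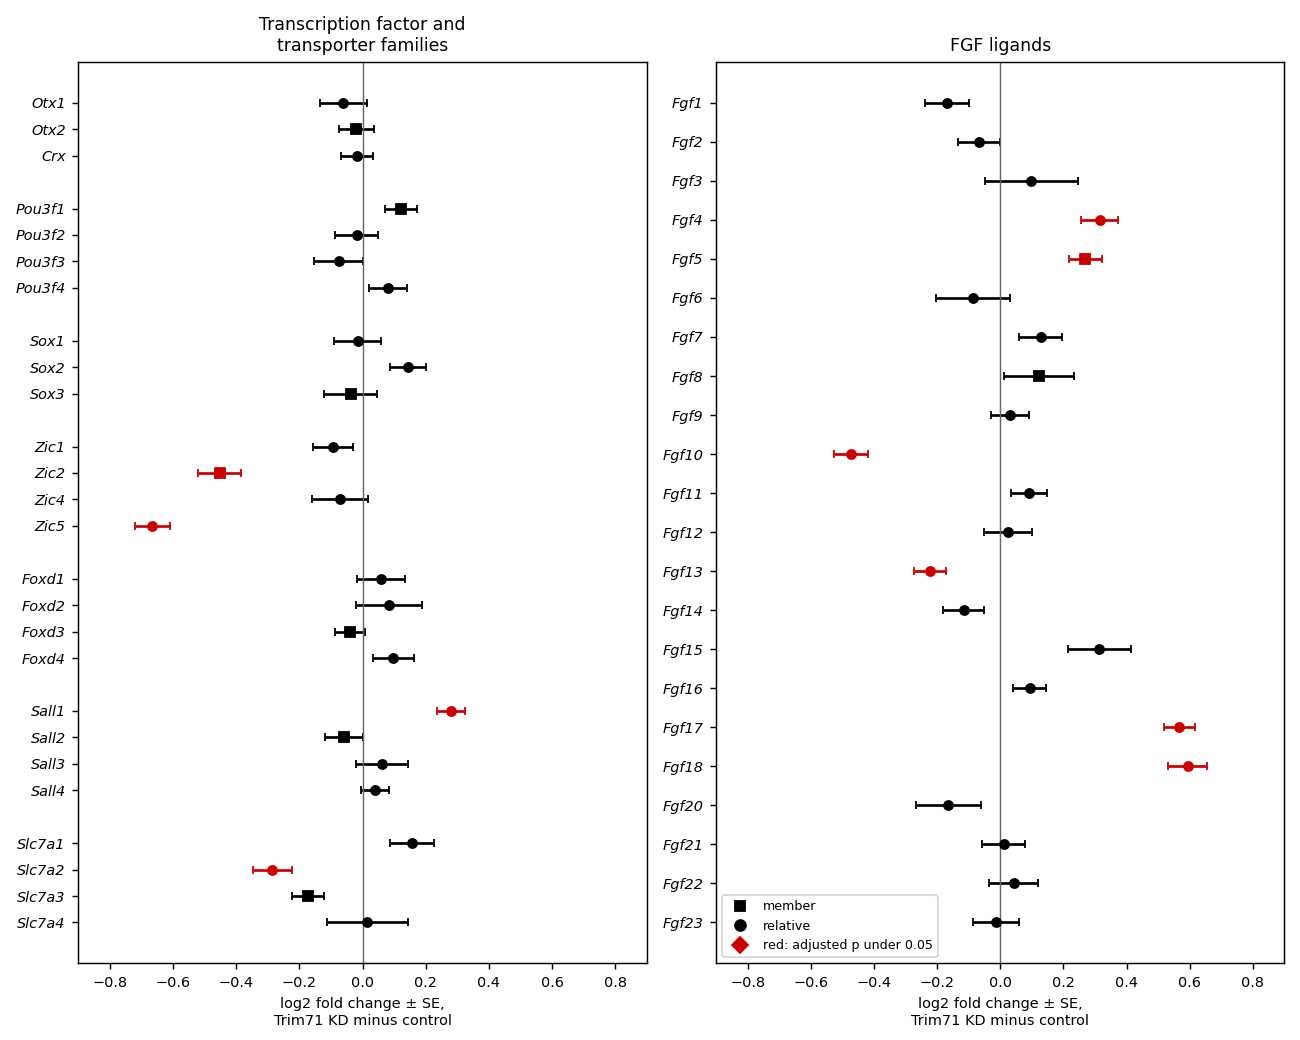
Log2 fold change ± SE (x axis, Trim71 knockdown minus control) of the members (squares) and their family relatives (circles), red where the adjusted p was under 0.05, with the transcription factor and transporter families on the left and the FGF ligands on the right. Zic2 and Zic5 lie left of 0, Fgf17 and Fgf18 lie right of Fgf8, and the OTX, POU class III, SOXB1 and FOXD families hold no red point.

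Over the 7 transcription factor and transporter families together, 19 relatives of the members were measured, of which 1 rose (Sall1), 2 fell (Zic5 and Slc7a2) and 16 were not called. That is 15.8% called, beside 5.53% of all genes. These lists, like the members, were chosen with earlier results of these data known, so the share is given as a description.

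**Figure D4:**
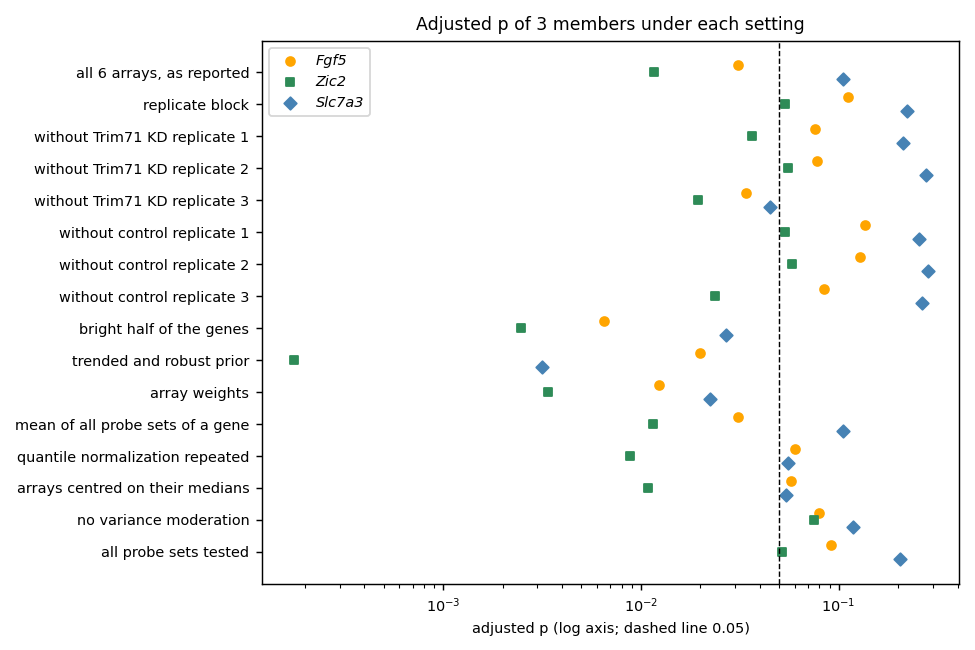
Adjusted p (x axis, log scale, dashed line at 0.05) of Fgf5, Zic2 and Slc7a3 with all 6 arrays and under 15 other settings. Zic2 crosses the line in 6 settings and reaches no more than 0.0752, Fgf5 crosses it in 10 settings, and Slc7a3 lies left of it in 4.

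A wider list of 22 other primed and formative genes, of which 20 were measured, held 3 that rose and 6 that fell, with a median log2 fold change of −0.09. So 45% were called, beside 5.53% of all genes. The genes that fell were Zic5, the de novo DNA methyltransferase genes Dnmt3b at −0.53 (adjusted p = 0.00573) and Dnmt3a at −0.35 (adjusted p = 0.0115), the SOX factor gene Sox4 at −0.41 (adjusted p = 0.0433), the Wnt modulator gene Sfrp2 at −0.24 (adjusted p = 0.0362), and Lin28b, which blocks let-7 maturation, at −0.24 (adjusted p = 0.0383). Those that rose were Grhl2, a grainyhead factor that opens epithelial enhancers in the formative state, at 0.57 (adjusted p = 0.00216), the kinase gene Pim2 at 0.42 (adjusted p = 0.0115) and the Wnt effector gene Lef1 at 0.38 (adjusted p = 0.0271). With 1 array left out, 1 to 3 of the list rose and 2 to 5 fell. Grhl2, Zic5 and Dnmt3b held in each of those fits. Control array 1 gave the highest adjusted p when left out for Pim2 (0.0616), Dnmt3a (0.0688), Lef1 (0.12) and Lin28b (0.162), and control array 2 for Sox4 (0.147) and Sfrp2 (0.15). Genes of the primed state stood on both sides of 0, as among the 9 members.

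Naive genes stood mostly on one side. Of 16 measured, 6 rose and 2 fell, beside 3.39% and 2.15% of all genes. Above 0 lay 13 of the 16, beside 51.8% of all genes, and the median log2 fold change was 0.18. All 16 had mean log2 levels of 7.18 or more. They are thus among the brighter genes, of which a fit of 9969 alone called 1124 higher and 766 lower. With 1 array left out 0 to 4 rose and 1 to 2 fell, while the median stayed between 0.16 and 0.21. Without knockdown array 2 or without any 1 of the control arrays 0 rose. In those fits the count called higher over all genes also dropped, from 675 to between 148 and 228. Klf4, a naive transcription factor gene, was at 0.36 (adjusted p = 0.0141), and Fgf4 is counted here too. Tcl1, which boosts Akt kinase activity, was at −0.46 (adjusted p = 0.00686) and Gbx2, a homeobox gene downstream of LIF, at −0.26 (adjusted p = 0.0206). Tcl1 held with any array left out, while Klf4 and Gbx2 were each kept in 2 of 6 fits and reached 0.068 and 0.107 without control array 1. The difference between the lists was not tested.

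**Figure D5:**
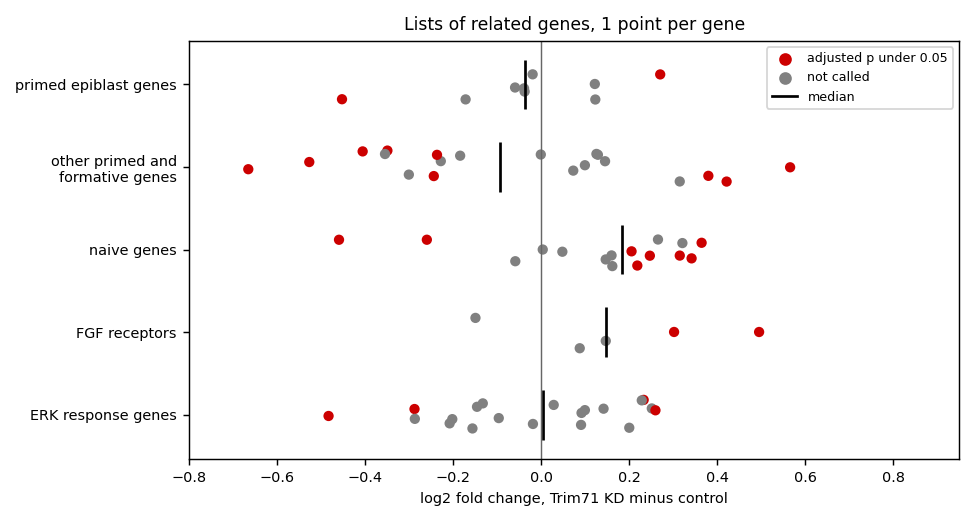
Log2 fold change (x axis, Trim71 knockdown minus control) of each measured gene in 5 lists, red where the adjusted p was under 0.05, with the median of each list as a black line. The median is −0.04 for the 9 primed epiblast genes, −0.09 for the other primed and formative genes, 0.18 for the naive genes, 0.15 for the FGF receptors and 0.00 for the ERK response genes.

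Markers of further cell types were followed because stem cell cultures can hold feeder or differentiated cells. Of 12 fibroblast, 10 endoderm and 7 mesoderm markers, 0 were called in limma, with either the usual or the trended and robust prior, and 2 of the 28 distinct genes had an unadjusted p under 0.05. Over all genes 5.53% were called with the usual prior, so a count of 0 among 28 says little. The mean log2 levels of these markers ran from 3.34 to 7.29, and at a low signal a fold change may be understated. Without knockdown array 1 the mesoderm marker Kdr, a VEGF receptor gene named with its value known, was called at 0.31 (adjusted p = 0.0368). With all 6 arrays Kdr was at 0.19 and was not called (adjusted p = 0.336). Most of its list went the other way. Of the 7 mesoderm markers 2 lay above 0 and 5 below, with a median log2 fold change of −0.12. The log2 of the summed signal was 9.41 to 9.54 on the knockdown arrays and 9.46 to 9.57 on the control arrays for fibroblast markers, and 9.43 to 9.48 on the knockdown arrays and 9.47 to 9.55 on the control arrays for endoderm markers. For mesoderm markers it was 9.10 to 9.19 on the knockdown arrays and 9.24 to 9.30 on the control arrays. Of 8 trophectoderm markers 1 rose, beside 3.39% of all genes. It was Tfap2c, an AP-2 factor, at 0.53 (adjusted p = 0.00723, held with any array left out). The other 7, given with their values known, were not called. Eomes was at −0.30, Hand1 at −0.16 and Elf5 at −0.12, and Cdx2 at 0.07, Gata3 at 0.03, Krt8 at 0.21 and Krt18 at 0.06. Krt8 and Krt18 were the brightest, with mean log2 levels of 11.16 and 10.53, and weigh most in the sum. The log2 of the trophectoderm sum was 12.23 to 12.39 on the knockdown arrays and 12.05 to 12.20 on the control arrays. The part of these cell types in the member values was not tested.

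The genes whose 6 values followed the called members most closely were sought among 9961 genes in the upper part of the level range. For Fgf5 this was Lpar1, a lysophosphatidic acid receptor gene (Pearson r = 0.996 over 6 arrays, log2 fold change 0.21, adjusted p = 0.0591). For Zic2 it was Snord42b, a small nucleolar RNA gene (Pearson r = 0.999 over 6 arrays, log2 fold change −0.19, adjusted p = 0.0769). With so many candidates and 6 arrays such values are a description of these arrays only.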

How the data were processed

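Expression was measured on 6 Affymetrix arrays, 3 of Trim71 knockdown and 3 of control cells, from 100 ng of total RNA per the labels' protocols. The deposited values are log2 expression per probe set. RMA and the affy package were used per the submitters' processing notes, with no version named there. That method corrects background, quantile normalizes and summarizes probes, so a shift common to most transcripts is hidden.

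Of 34760 probe sets, 21640 had 1 gene symbol in GEO's platform annotation, 1321 had several and 11799 were unnamed here. Of the first, 21553 matched RefSeq by Entrez identifier. Where a gene had several of these (954 genes), the brightest by mean level was kept, leaving 19937 genes without an intensity filter. Group was the only term in limma 3.58.1 (R 4.3.3, lmFit and eBayes), with Benjamini-Hochberg adjustment over all genes. Named genes are Trim71, all members, the called genes of related lists, up to 4 leading genes of other lists, and the closest profile of each called member. Relatives and markers outside that rule are given in the text as named with their values known, and 3 stem cell markers without values of their own. Replicate numbers were not taken as pairs: deviations of same-numbered arrays correlated at −0.02, −0.15 and −0.24. Deviations from a group mean constrain one another, so these values cannot exclude that same-numbered samples were handled together. The fit was tested on simulated data. Figures used Python 3.11.15, pandas 2.3.3 and matplotlib 3.10.9. The members and lists were chosen with earlier results of these data known. The number of arrays limits the precision.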

Additional observations from a re-analysis of the deposited data

How the results depend on the processing

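The Trim71 call held in all 15 alternatives. Of 134 member values recomputed, 109 kept their direction and side of the threshold, 16 (all Fgf5 or Zic2) lost the call, 4 (all Slc7a3) gained it and 5 turned sign without being called. Those were Otx2 at 0.030 without knockdown array 2 (range −0.046 to 0.030 with an array left out), Sox3 at 0.0089 without knockdown array 3, 0.030 without control array 1 (range −0.099 to 0.030) and 0.016 with array weights, and Fgf8 at −0.0025 without control array 2 (range −0.0025 to 0.19). The count of members higher, 1 with all arrays, ranged from 0 to 1 with an array left out, and was 0 with the replicate block, both other scalings, no variance moderation, all probe sets tested, a minimum of 1.5-fold and an adjusted p under 0.01. The count lower, 1, ranged from 0 to 2 with an array left out, was 2 among the brighter genes (mean at or above the median gene's), with a trended and robust prior and with array weights, and 0 with the replicate block, no variance moderation, all probe sets, 1.5-fold and 0.01. Where it was 0 with the block, Fgf5 had an adjusted p of 0.112 and Zic2 of 0.0536 in limma. The median member log2 fold change, −0.038, ranged from −0.044 to −0.021 with an array left out, and was −0.029 among the brighter genes, −0.066 after repeated quantile normalization and −0.068 with arrays centred. Genes called higher and lower over the whole table, 675 and 428, ranged from 148 to 603 and from 101 to 699 with an array left out. They were 171 and 108 with the replicate block (0 of 3 knockdown arrays correlated best with the control array of their number), 1124 and 766 among the brighter genes, 1213 and 854 with the trended prior, 1114 and 1058 with array weights, 779 and 763 after quantile normalization, 271 and 142 without moderation, 266 and 134 over all probe sets, 62 and 43 at 1.5-fold, and 152 and 94 at 0.01. The stricter thresholds call fewer genes by construction; the cause of the other shifts was not tested. Sall2 was not among the brighter genes. Signal over background could not be judged.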
